A study of Drosophila melanogaster with 2 samples.

Results

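Mef2, Tm1, SERCA, sqa, Mhc, Act88F, wupA, up, sls and bt are 10 muscle genes among 13945 protein-coding genes of the fruit fly, examined here in a map of where the forkhead-family protein Crg-1 was recovered on chromatin. Chromatin from whole adult Drosophila melanogaster, males and females pooled and of unknown age, was immunoprecipitated with an antibody against GFP and sequenced. All animals came from a transgenic line that stably expresses Crg-1 carrying GFP at its C terminus, and the 2 libraries, which the labels number replicates 2 and 3, form 1 group. The deposited lists were called against a shared control alignment, and an untagged line was not analysed here. The genes were chosen from earlier results on these same lists, in which Mef2, Tm1, SERCA and sqa were the muscle genes with a region at the promoter, so that contrast is described below and carries no test. Every region whose summit fell in the gene body or within 5 kb of it, the territory of the gene, was taken from the thresholded set of 3707 regions, from the pooled list and from each replicate list of 30000 regions.

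The 10 genes encode parts of the contractile machinery and its control. Striated muscle shortens when myosin thick filaments pull on actin thin filaments, and calcium released from the sarcoplasmic reticulum starts this by acting on troponin and tropomyosin. Titin-like proteins tie the filaments to the Z disc and to each other, and the transcription factor Mef2 activates many of these genes as fly muscle differentiates. In whole animals a region present weakly in many cell types and one present strongly in muscle alone cannot be told apart, and the lists hold no measure of expression.

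The regions on which the results turn are shown first by their sequence, the summit with 50 bases on each side in the Release 6 genome (dm6). They are the thresholded region at an internal start of Tm1, the one in a Tm1 intron, the stronger one in the Tm1 flank at the starts of Cp190 and CG4338, and the pooled-list regions at the starts of sls and up, which did not pass the threshold. The intervals, in that order, are chr3R:15287892-15287992, chr3R:15291621-15291721, chr3R:15275279-15275379, chr3L:2115819-2115919 and chrX:13602524-13602624. The first 3 are given on the plus strand and the sls and up sequences on the minus strand, along which those genes are read. Of these sequences, only that of up contains a start of the gene or genes it is named after. The summits lay 70 bp from the Tm1 start, 88 bp from that of Cp190 and 258 bp from that of sls. Capitals mark every match on either strand to the words searched, which here were CANNTG and GAGAG.
Tm1 internal start: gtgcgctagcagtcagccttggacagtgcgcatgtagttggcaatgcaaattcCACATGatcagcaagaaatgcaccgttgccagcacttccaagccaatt
Tm1 intron: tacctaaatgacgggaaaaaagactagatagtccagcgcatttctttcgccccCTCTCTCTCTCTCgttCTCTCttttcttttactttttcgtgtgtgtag
Cp190 and CG4338 starts: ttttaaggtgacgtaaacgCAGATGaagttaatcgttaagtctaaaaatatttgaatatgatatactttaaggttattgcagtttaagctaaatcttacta
sls start: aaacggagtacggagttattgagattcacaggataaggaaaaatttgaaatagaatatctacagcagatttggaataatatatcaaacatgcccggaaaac
up start: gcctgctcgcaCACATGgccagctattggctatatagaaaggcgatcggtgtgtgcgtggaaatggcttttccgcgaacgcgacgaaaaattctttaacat

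The thresholded set placed 15 regions in these territories, and all of them fell to 4 genes. Mef2 had 7, Tm1 had 4, and SERCA and sqa had 2 each, whereas Mhc, Act88F, wupA, up, sls and bt had none. Only 4 of the 15, 1 for each of the 4 genes, were centred at a promoter of the muscle gene itself, which here means 500 bp or less from any of its annotated transcription starts. A further 7 lay at the starts of neighbouring genes, 2 in introns, 1 in a 5' UTR and 1 in a 3' UTR. With any promoter counted, 11 of 15 were promoter regions, or 73.3%, beside 70.9% of all thresholded regions, and introns held 13.3% beside 21.5%.

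Counted by gene, 4 of 10 had a thresholded summit at a promoter, where the share of all protein-coding genes was 22.9%. Since the genes were chosen on this value, nothing is read from the difference. A summit anywhere in the territory was found for the same 4 of 10, against 47.6% of all protein-coding genes. Among the 6715 genes with bodies between 2209 and 75931 bp, the range of the members, that share was 55.6%. When each promoter summit was given to the gene of the nearest start alone, 4 of 10 again carried one, beside 16.8% of all genes. At a stricter limit, the median signal of the set, 161.2, Mef2 alone of the 4 kept a promoter region. The share of all protein-coding genes at that limit is not given, so nothing is read from this count.

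**Figure D1:**
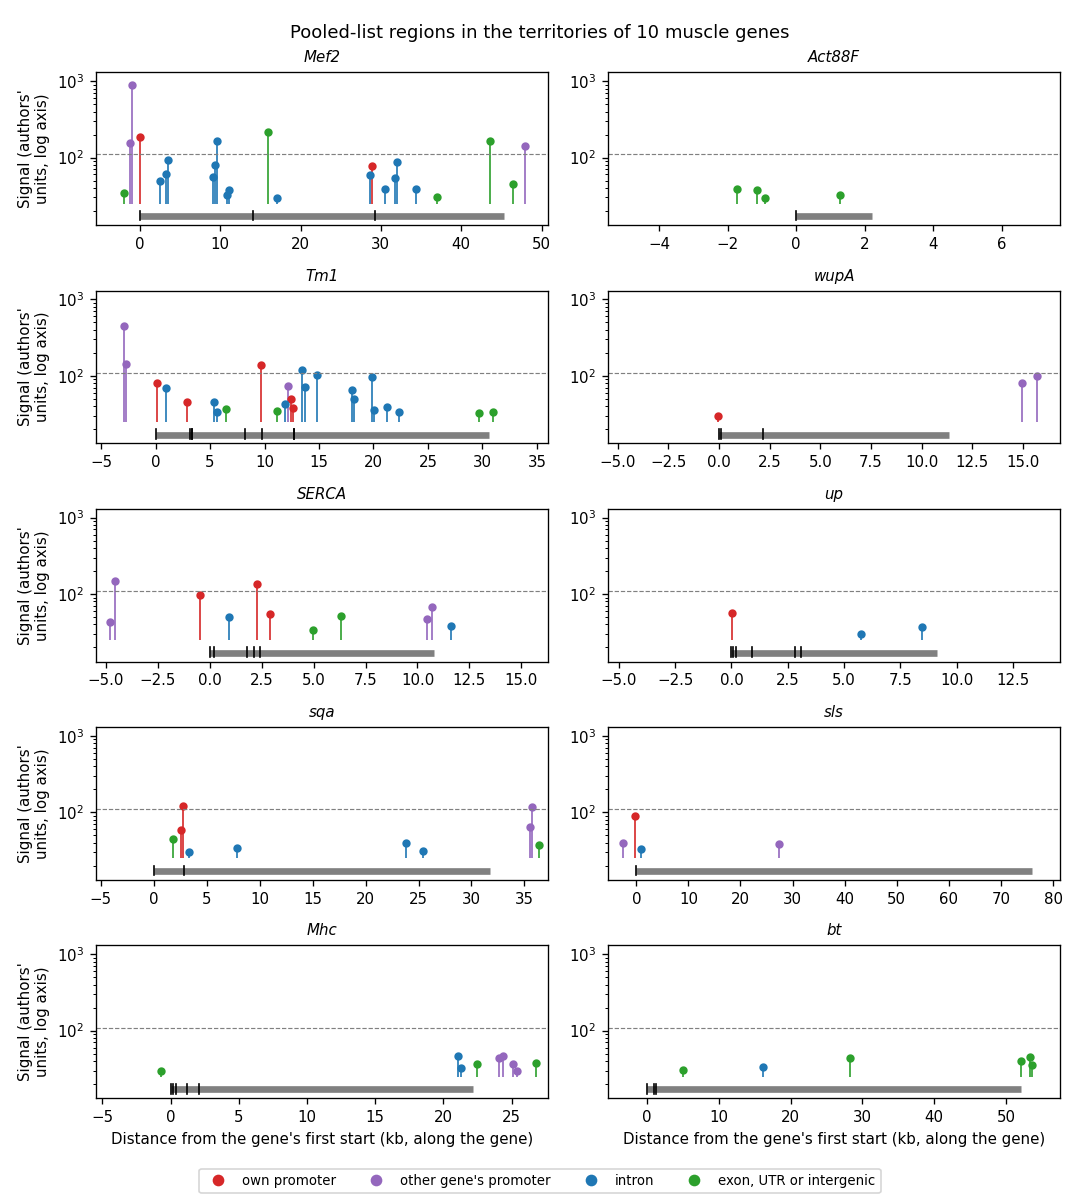
Pooled-list regions in the territory of each gene, by distance from the gene's first start along the direction of transcription (kb) and by the authors' signal (log axis). Grey bars are gene bodies, black ticks annotated starts, and the dashed line is the lowest thresholded signal, 109.7; the strongest points at Mef2 and Tm1, 896.0 and 447.9, belong to neighbouring promoters.

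Mef2, the regulator of the group, lay on arm 2R from 9913496 to 9958858 on the minus strand, with 3 annotated start sites. Its own promoter region covered 9958618 to 9959057, with the summit 20 bp inside the first start, that of transcripts Mef2-RF and Mef2-RH. The signal was 187.6, rank 1421 of the pooled list, with ranks 1360 in replicate 2 and 1849 in replicate 3. Both replicates thus placed this region among their 3707 strongest, here called top-ranked. The start used by 8 other transcripts, including Mef2-RA, had a weaker region with a signal of 76.9 at rank 6628, and the start of Mef2-RG had none in the pooled list.

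Inside the Mef2 gene the strongest region of the pooled list was not at a start, and this order held in replicate 2 but turned in replicate 3, where the promoter ranked 1849. The region covered 9942736 to 9943175 in sequence annotated as 5' UTR, 1808 bp downstream of the start of Mef2-RG, with a signal of 213.6 and ranks 868 and 1921 in replicates 2 and 3. An intronic region at 9949004 to 9949443, 4460 bp from the nearest Mef2 start, had a signal of 166.7 and ranks 1440 and 3468. A region in the 3' UTR, at 9915034 to 9915473, had 165.3, with ranks 1493 and 2495. All 4 regions inside the gene were top-ranked in both replicates, and each ranked better in replicate 2.

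The highest signal in any of the territories lay beside Mef2 and not at its start. A region from 9959727 to 9960104 carried 2 deposited summits, with signals of 896.0 (rank 28) and 152.9 (rank 2046). The stronger summit was 125 bp from the start of Pdrg1, which encodes a prefoldin-like protein, and 999 bp from the nearest Mef2 start. The weaker one was 8 bp from a start of Pal1, an enzyme that completes the amidation of neuropeptides. The region overlapped the region ranked 30 in replicate 2 and 25 in replicate 3. At the other end of the territory, a region with a signal of 141.0 had its summit 1 bp from the start of Etf-QO, a mitochondrial electron-transfer dehydrogenase.

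Tm1, one of the fly's tropomyosin genes, lay on arm 3R from 15278220 to 15308779 on the plus strand and had 8 annotated starts. The tropomyosin coiled coil runs along the thin filament and gates the access of myosin, and Tm1 also makes cytoplasmic forms outside muscle. Its thresholded promoter region, from 15287722 to 15288161, was centred 70 bp upstream of start 6, that of Tm1-RC and Tm1-RI. The signal was 136.7 at rank 2527, and the ranks in replicates 2 and 3, 2879 and 2744, differed by a factor of 1.05, the smallest of the 15 regions. The other starts with a pooled-list region lay below the threshold, from 80.2 at the first start to 45.7 at starts 2 to 4, and start 5 had none.

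The intronic region of Tm1, from 15291451 to 15291890, had its summit 725 bp downstream of the start of Tm1-RQ and a signal of 120.1. It ranked 2104 in replicate 2 and 6546 in replicate 3, so the latter did not hold it among its top-ranked regions. The opposite was seen for 2 further intronic regions of Tm1 just below the threshold. A region at rank 4281 of the pooled list ranked 9433 in replicate 2 and 2377 in replicate 3, and one at rank 4601 ranked 8082 and 2511. The replicates therefore ordered the intronic regions of this gene differently. As at Mef2, the strongest region of the territory was a neighbour's: the summit with 447.9, rank 201, lay 88 bp from the start of the insulator protein gene Cp190, with a start of CG4338 also in reach, and a second summit of 141.9 lay 23 bp from the latter.

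SERCA, the pump that returns calcium to the sarcoplasmic reticulum, lay on arm 2R from 23925077 to 23935884 on the minus strand with 5 starts. The thresholded region at 23933414 to 23933853 was within reach of starts 3, 4 and 5, and its summit was 106 bp inside start 4. Its signal was 136.7, rank 2529, but it ranked 5802 in replicate 2 and 1338 in replicate 3, the widest difference among the 15 regions. In replicate 2 the strongest region at a SERCA start was another, 439 bp upstream of start 1, at rank 3468; the pooled list gave the region there a signal of 96.9 at rank 4577. The second thresholded region of this territory, with 147.6, was 53 bp from the start of Taldo, the transaldolase of the pentose phosphate pathway.

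The kinase gene sqa, whose protein belongs to the myosin light chain kinase family and phosphorylates the regulatory light chain of non-muscle myosin in flies, lay on 2R from 9716348 to 9748121. A region at 9745125 to 9745564 was centred 72 bp upstream of its second start, with a signal of 120.7 at rank 3140. It ranked 3815 in replicate 2, just outside the top-ranked regions, and 3312 in replicate 3. The first start, that of sqa-RD, had no pooled-list region. The other thresholded region, with 117.1, lay 47 bp from the start of the cyclin-dependent kinase inhibitor gene dap and ranked 2584 and 5222.

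**Figure D2:**
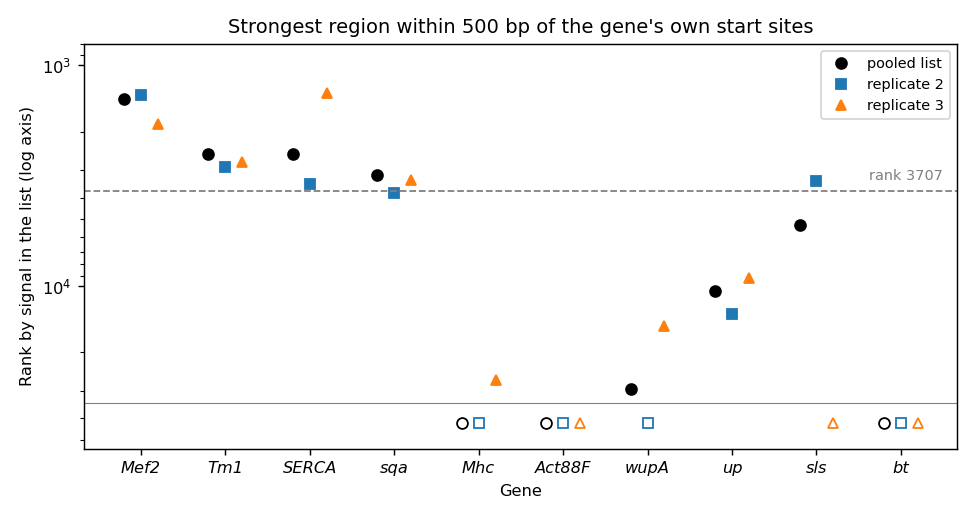
Rank of the strongest region within 500 bp of any of the gene's own starts, in the pooled list and in each replicate list (log axis, strong ranks at the top). The dashed line is rank 3707, and open symbols under the grey line mark a list with no such region, as for all 3 lists at Act88F and bt; sls was above the dashed line in replicate 2 and absent from replicate 3.

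Of the other thin filament genes among the members, none had a thresholded region. The troponin T gene up (X, 13593474 to 13602578, minus strand) had a pooled-list region 4 bp from its first start with a signal of 57.0 at rank 10549, and its strongest promoter regions ranked 13515 in replicate 2 and 9224 in replicate 3. The troponin I gene wupA (X, 18105568 to 18116922) had one of 29.8 at rank 29456, near the end of the list, with a replicate 3 region at rank 15185 and none in replicate 2. The flight muscle actin gene Act88F (3R, 15439969 to 15442177) had no region within 500 bp of its single start in any list. Its 4 pooled-list regions had signals of 29.8 to 38.4, with the strongest 1721 bp upstream of the start. Of these 3 genes, up alone had a region at a start in both replicates.

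Mhc, the single muscle myosin heavy chain gene of the fly, lay on 2L from 16766566 to 16788766. None of its 5 starts had a pooled-list region within 500 bp, and replicate 3 alone listed one, at rank 26722. The 9 pooled-list regions of the territory had signals of 29.5 to 46.7, and 4 of them lay at the starts of genes beyond its 3' end. The strongest, 46.7, was 212 bp from the start of Cyt-b5-r.

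The titin-like genes are the longest of the group. For sls, which encodes Sallimus and kettin of the Z disc and lies on 3L from 2039681 to 2115611, the region at the only start had a signal of 88.8 at rank 5306. Replicate 2 ranked it 3363, among the top-ranked regions, but replicate 3 listed nothing within 500 bp of this start. For bt, which encodes the thick filament kinase projectin and lies on chromosome 4 from 724400 to 776474, no list held a region within 500 bp of any of the 3 starts. Its 6 pooled-list regions reached 45.5, and the strongest lay 649 bp from the start of the non-coding gene lncRNA:CR45200.

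In order of the own-promoter rank in the pooled list, the genes were Mef2 (1421), Tm1 (2527), SERCA (2529), sqa (3140), sls (5306), up (10549) and wupA (29456), with none at Mhc, Act88F and bt. The order of Mef2, Tm1 and SERCA was the same in replicate 2 (1360, 2879 and 3468). It did not hold in replicate 3, where SERCA was ahead of Mef2 (1338 against 1849). The gene sqa ranked behind these 3 in both replicates, and sls was ahead of SERCA and sqa in replicate 2 (3363). A promoter summit of any strength in the pooled list was found for 7 of 10 genes, beside 57.6% of all protein-coding genes. With the 3707 top-ranked regions of 1 replicate in place of the thresholded set, replicate 2 gave a promoter region at Mef2, Tm1, SERCA and sls, 4 of 10 where the background was 22.6%. Replicate 3 gave Mef2, Tm1, SERCA and sqa, against 22.4%. Thus sqa and sls exchanged places depending on the replicate used. SERCA was called in replicate 2 through the region upstream of its start 1, because its thresholded region ranked 5802 there.

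Of the 15 thresholded regions, 11 overlapped a top-ranked region in both replicates, or 73.3%, near the 75.9% of all thresholded regions. The labels call the libraries biological replicates but give both the same donor entry, so how far they are independent is not known. The 4 that did not were the Tm1 intron, the promoters of SERCA and sqa, and the dap promoter. Ranks in the replicates differed by a factor with a median of 1.67, from 1.05 to 4.34, where all thresholded regions had a median of 1.43. The summits of the 2 replicates were a median of 24 bp apart, against 26 bp over all thresholded regions, and the widest gap was 222 bp at Taldo. The 2 entries at Pdrg1 and Pal1, and the 2 at Cp190 and CG4338, each overlap the same replicate regions, so these values count those replicate regions again. The Pal1 entry is top-ranked only through the replicate regions at Pdrg1. Replicate 3 also listed a summit 14 bp from a start of Pal1, at rank 7736.

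**Figure D3:**
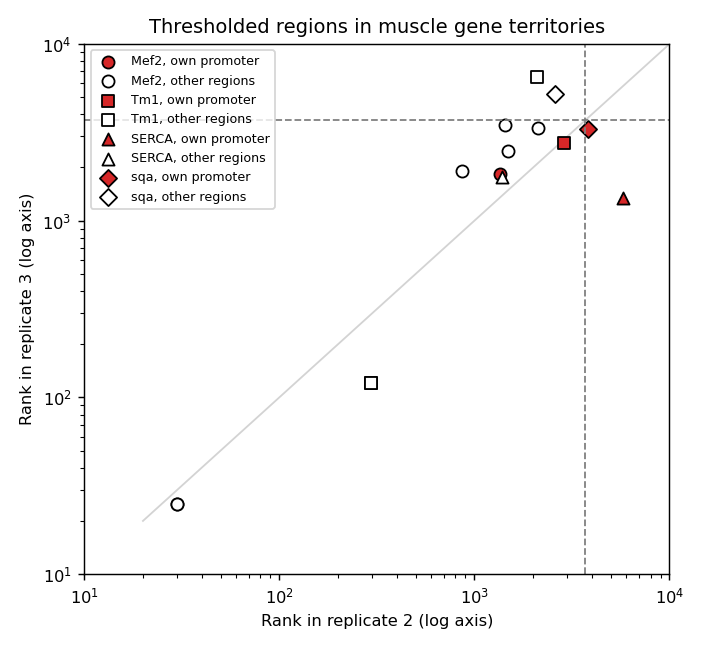
Rank of the strongest overlapping region in replicate 2 and in replicate 3 for the 15 thresholded regions in the territories (log axes); filled symbols are the own promoters and dashed lines mark rank 3707. In 2 cases a pair of entries coincides, and the SERCA promoter stands farthest from the diagonal, at 5802 and 1338.

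The pooled list, which runs down to background, placed 99 regions in the territories, of which 15.2% were in the thresholded set, beside 12.4% of the whole list. Of the 99, 68 overlapped some region in both replicate lists, or 68.7%, beside 67.1% overall. By place, 15 were at the genes' own promoters, 20 at other promoters, 39 in introns and 10 in coding exons. Around the threshold, the weakest members inside were the dap promoter with 117.1 and the Tm1 intron with 120.1, and the strongest outside were the Tm1 intronic region at rank 4281, a region at the start of Mvb12 beside wupA with 99.4 and the upstream SERCA region with 96.9.

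Candidate regions were spread unevenly over the genes. Per 100 kb of territory the pooled list held 61.6 regions at Tm1, 52.9 at SERCA and 43.4 at Mef2, but 9.67 at bt and 4.65 at sls. The median of the 6715 genes with bodies between 2209 and 75931 bp was 35.9. These genes span the range of the members and were not matched in length to any single member. Tm1, SERCA and Mef2, each with a thresholded promoter region, were the densest of the members. The other gene with such a region, sqa, had 23.9, below Act88F with 32.8 and Mhc with 27.9, which had none. These densities include the flanks. Inside the gene body lay 7 of the 10 regions at sqa, but 2 of 9 at Mhc and 1 of 4 at Act88F. At sls, 4 regions lay in 85.9 kb, a density below which 8.31% of those genes fell; for bt this share was 15.6%, for wupA 19.5% and for up 22.4%. At Tm1 81.3% of the genes had a lower density. The pooled list holds a fixed number of regions ordered by signal, so a low density says that few windows of the gene reached the end of that list.

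Motif words were searched on both strands in the 50 bases on each side of each thresholded summit. The forkhead words were ACAAACA or ACAAATA or ATAAACA or ATAAATA or GCAAACA or GCAAATA or GTAAACA or GTAAATA. At least 1 of them occurred in 4 of the 15 member windows, or 26.7%, beside 36.1% of all thresholded and 28.1% of all pooled-list windows. The 4 were the Mef2 intron, the Mef2 3' UTR, the Pal1 start and the SERCA promoter. Of these, the Mef2 intron also held the forkhead core TGTTTAC, whose reverse complement is 1 of the forkhead words, as did 6.02% of all thresholded windows. Neither the Tm1 windows shown above nor the promoters of Mef2 and sqa held a forkhead word.

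The E-box word CANNTG occurred in 7 of 15 member windows, or 46.7%, beside 39.3% of all thresholded windows. The word GAGAG occurred in 3, beside 12.6%, including the run of CT repeats in the Tm1 intron. The 10-base MEF2 consensus occurred in 1, at dap, beside 4.77%. The word TATCGATA, the DRE of many housekeeping promoters, occurred in none, beside 3.86%. With 15 windows, 1 window amounts to 6.67%, and a word found or missed in these windows says nothing of what binds there.

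The wider set of muscle genes was a list of 72 genes in 8 roles. A thresholded promoter summit lay at 10 of the 72, or 13.9%, and outside the 10 members at 6 of 62, or 9.68%, beside the 22.9% of all protein-coding genes given above. With each summit given to the gene of the nearest start alone, the counts were again 10 of 72 and 6 of 62, beside 16.8% of all genes. A pooled-list promoter summit was found at 42 of the 72, or 58.3%, beside 57.6%. The list was drawn up with earlier results of these data known, so its counts are descriptions.

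By role, the thick filament group had a thresholded promoter summit at 0 of 6 genes, the thin filament group at 1 of 14 (Tm1) and the Z disc and titin-like group at 1 of 12. That gene was Actn, the alpha-actinin that cross-links thin filaments at the Z disc, with a signal of 120.6. Its summit lay 53 bp from a start of Actn, with starts of CG4313 and of usp, the nuclear receptor partner of the ecdysone receptor, also in reach. Calcium handling had 1 of 5 (SERCA), with none at the calcium release channel gene RyR, and the myosin light chain kinases 1 of 2 (sqa).

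Of the genes that attach muscle to the matrix, 3 of 11 had one. These were mys, the beta integrin subunit, with 181.7, Fit1, a kindlin, with 154.9, and rhea, the talin that links integrin to actin, with 128.2. The strongest mys summit was 98 bp from its start, and a start of fs(1)h was also in reach. Muscle transcription factors had 2 of 14, Mef2 and tin, the homeobox regulator of the heart, with 185.8. Among 8 genes of myoblast fusion, mbc alone had a thresholded promoter summit. The strongest summit in its reach, with 245.1, lay 161 bp from the start of mbc and 17 bp from a start of the nucleoporin gene Nup98-96. By nearest start alone, mbc was therefore counted through another summit than this one.

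**Figure D4:**
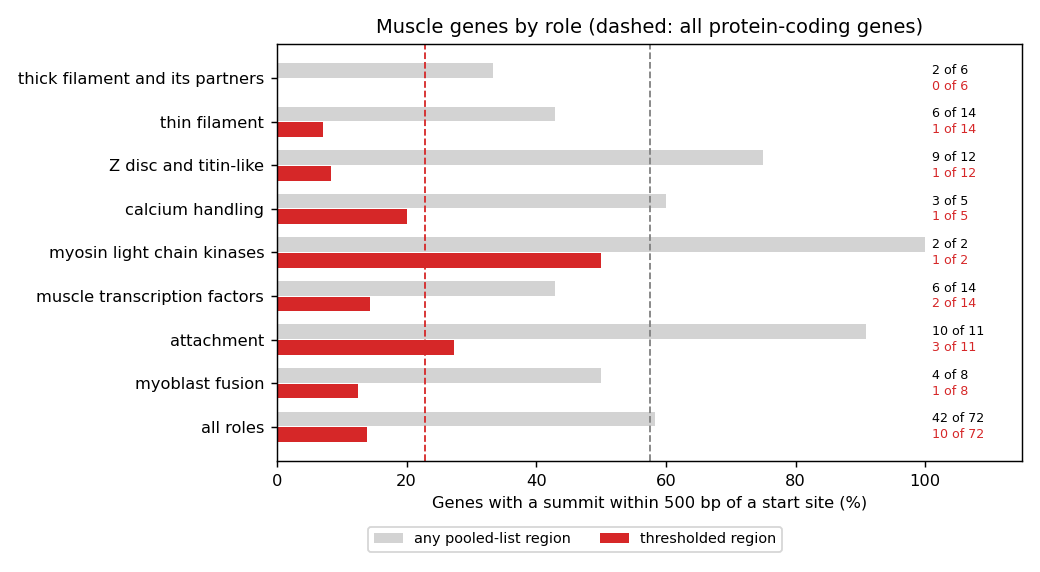
Percentage of genes in each role with a promoter summit, in the thresholded set (red) and in the pooled list (grey), with counts at the right. Dashed lines give the percentages over all protein-coding genes, 22.9 and 57.6; over all 72 genes the percentages were 13.9 and 58.3.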

How the data were processed

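The files used were the 4 narrow-peak lists on dm6 that the authors deposited. Per the deposited descriptions, each replicate list was called from that replicate's alignment and a control alignment, the pooled list from the 2 alignments together with that control, and the thresholded set was derived from these 3 lists by irreproducible discovery rate. Neither aligner nor peak caller is named in the sources used here. The signal column, the authors' height of each region in their own units, ranked regions within a list only. The deposited −log10 q column was not used. Read depth is unknown, so no counting intervals are given. Summits were at the midpoint of the region in 90.1% of thresholded and 98.8% of pooled-list entries, so most distances are those of midpoints. Sonicated fragments were 200 to 800 bp, per the labels.

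Genes, start sites and exons came from Ensembl release 115 without transposable elements, and sequence from the RefSeq copy of Release 6, on 6 arms. Positions count from 1. Classes were assigned in the order promoter (500 bp or less from any start), UTR (5' before 3'), coding exon, remaining exon, intron and intergenic. A replicate region supported a region when they shared at least 1 bp, the best-ranked one being taken. The members, lists and rules were chosen with earlier results of these data known, so no test was made. Named genes were the members, role-list genes with a thresholded promoter summit and the genes whose starts lay in reach of members' regions; RyR, usp, CG4313, fs(1)h, Nup98-96, Cyt-b5-r, lncRNA:CR45200 and Mvb12 were named after their values were seen. All 72 names of the role list matched a gene, 2 of them through another case or an older symbol. Class assignment was tested on simulated data. Alternatives covered the promoter distance, start sites, flank, position rule, threshold, overlap, replicates, merging and, chosen after seeing the data, the nearest start. The lists on the dm3 build were not used. Python 3.11.15 with pandas 2.3.3 and numpy 2.4.6 was used.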

Additional observations from a re-analysis of the deposited data

How the results depend on the processing

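Of 44 alternative values, 34 stayed within 1.5 times the reported count. With promoters of 1000 bp, intronic regions fell from 2 to 1. With no flank, 8 of the 15 thresholded regions were left, 4 of them promoter regions and 5 top-ranked in both replicates, because the neighbours' promoters lie in the flanks. At or above the median thresholded signal, 6 regions were left, 3 promoter and 1 intronic, all 6 top-ranked in both replicates. They lay in the territories of 2 genes, and 1 gene kept a promoter region. Shares over all genes at that limit are not given, so these counts stand without a background. Leaving out each replicate gave 4 genes with a promoter region both times. The shares of all protein-coding genes were 22.4% without replicate 2 and 22.6% without replicate 3. Without replicate 3, sls stood in place of sqa, and SERCA was called through another region than the thresholded one. Both times 14 regions were found, with 9 to 10 promoter and 2 to 3 intronic regions. The genes with a region in the territory numbered 4 to 6. Background shares are not given for these region and territory counts, nor for the counts without flanks, so nothing is read from them. The support in both replicates has no value with 1 replicate. No paired analysis was possible because the study has 1 group and no result comes from a test. The lists give no depth, so a gene without a region is one for which none was listed.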
